A study of Homo sapiens with 6 samples.

Results

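Messenger RNA levels of 10 genes of the FOXO arm of AKT signalling were described in the human ovarian carcinoma line SKOV3, an established line that is known to carry an activating mutation of PIK3CA. The 10 genes, taken by name from the 58735 annotated genes of each library, were the transcription factors FOXO1, FOXO3 and FOXO4, the pseudokinases TRIB1 and TRIB2, the insulin receptor substrates IRS1 and IRS2, and the FOXO target genes PDK4, CCNG2 and BCL6. Cells of the TIPE2 group (3 libraries) carried a lentivirus encoding human TIPE2, and cells of the Vector group (3 libraries) carried the empty vector. Per the labels, both were SKOV3 cells and the stable TIPE2 cells were made by selection with puromycin for a week; the labels do not say whether a clone or a pool was kept, and they name biological replicates without saying whether each had its own transduction, so each p-value reflects the spread among these libraries alone, which may be technical.

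FOXO factors are transcription factors that bind promoters of genes for cell cycle arrest, fasting metabolism, autophagy and insulin signalling. When growth factors activate PI3K, the kinase AKT phosphorylates FOXO proteins, which then bind 14-3-3 proteins and leave the nucleus, so their targets are transcribed less. This control acts on the protein, and mRNA of the FOXO genes does not report where the proteins are. TIPE2, the product of TNFAIP8L2, binds phosphoinositides, the lipids through which PI3K recruits AKT to membranes.

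Promoter sequence in front of 4 of the genes is shown because FOXO proteins bind a short DNA motif. RefSeq promoters (GRCh38.p14) of 9 of the 10 genes were searched, with 13 annotated starts in all. TRIB1 was left out of the search, so whether its promoter holds a motif was not tested. The 250 bases before each start were searched on both strands for 2 motifs. The FOXO core motif was searched as GTAAACA, which reads on the opposite strand as TGTTTAC. The insulin response motif was searched as CAAAACA, which reads on the opposite strand as TGTTTTG, and neither motif contains the other. A match was found in 2 of the 13 windows. Of all 35116 promoters of the same length, 2.98% held the first motif, 4.30% the second and 7.07% either. The share of G and C bases was 47.6% to 80.8% in the 13 windows, beside a median of 58% over all promoters, and the motif shares are not matched for it. IRS2 held TGTTTTG, which begins 40 bases before the start, and TRIB2 held TGTTTAC, which begins 249 bases before the start. These are shown with 2 genes whose mean was higher in TIPE2 cells, FOXO4 and CCNG2, and whose windows held neither motif; capitals mark the motif, and bases that overlap an annotated exon were left off. IRS2 lies at chr13:109786584-109786833 (minus strand), TRIB2 at chr2:12716686-12716888 (plus strand), FOXO4 at chrX:71095601-71095850 (plus strand) and CCNG2 at chr4:77156957-77157150 (plus strand).
IRS2: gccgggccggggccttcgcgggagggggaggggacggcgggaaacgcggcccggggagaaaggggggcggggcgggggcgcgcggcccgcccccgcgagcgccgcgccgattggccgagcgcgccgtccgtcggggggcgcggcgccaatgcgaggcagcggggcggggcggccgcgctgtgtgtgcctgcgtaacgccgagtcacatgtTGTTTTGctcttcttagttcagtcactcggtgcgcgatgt
TRIB2: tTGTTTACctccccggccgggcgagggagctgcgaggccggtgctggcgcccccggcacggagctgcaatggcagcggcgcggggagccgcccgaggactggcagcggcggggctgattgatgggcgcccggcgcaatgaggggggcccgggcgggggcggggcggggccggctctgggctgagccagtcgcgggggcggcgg
FOXO4: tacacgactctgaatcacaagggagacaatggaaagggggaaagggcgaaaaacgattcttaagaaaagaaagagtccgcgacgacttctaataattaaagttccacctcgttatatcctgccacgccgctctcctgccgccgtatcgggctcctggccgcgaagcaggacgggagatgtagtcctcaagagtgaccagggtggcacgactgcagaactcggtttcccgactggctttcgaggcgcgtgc
CCNG2: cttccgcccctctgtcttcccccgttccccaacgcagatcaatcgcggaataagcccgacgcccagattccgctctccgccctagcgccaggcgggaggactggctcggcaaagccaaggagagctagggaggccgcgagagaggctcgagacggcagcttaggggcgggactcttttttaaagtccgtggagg
A match is a string of letters in this window and was not tested as a binding site.

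All 10 genes were expressed above the filter, a mean of 1 FPKM (fragments scaled by gene length and library depth) over the 6 libraries. Between 161 and 2064 fragments lay behind each value, so counting error was at most 7.88% of a value. The order of the mean levels over 6 libraries was TRIB2 (18.9 ± 4.17 FPKM, SD), TRIB1 (13.6 ± 3.43 FPKM), FOXO3 (9.22 ± 1.58 FPKM), CCNG2 (4.33 ± 1.43 FPKM), FOXO4 (4.30 ± 0.985 FPKM), IRS1 (3.68 ± 1.29 FPKM), FOXO1 (3.64 ± 1.01 FPKM), PDK4 (3.29 ± 1.12 FPKM), BCL6 (2.82 ± 0.742 FPKM) and IRS2 (2.26 ± 0.289 FPKM). Of the neighbours in that order, FOXO3 and CCNG2 were the 1 pair whose ranges over libraries did not overlap. TRIB1 nevertheless exceeded FOXO3 within each of the 6 libraries, and TRIB2 exceeded TRIB1 in 5 of 6, the exception being TIPE2 3.

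**Figure D1:**
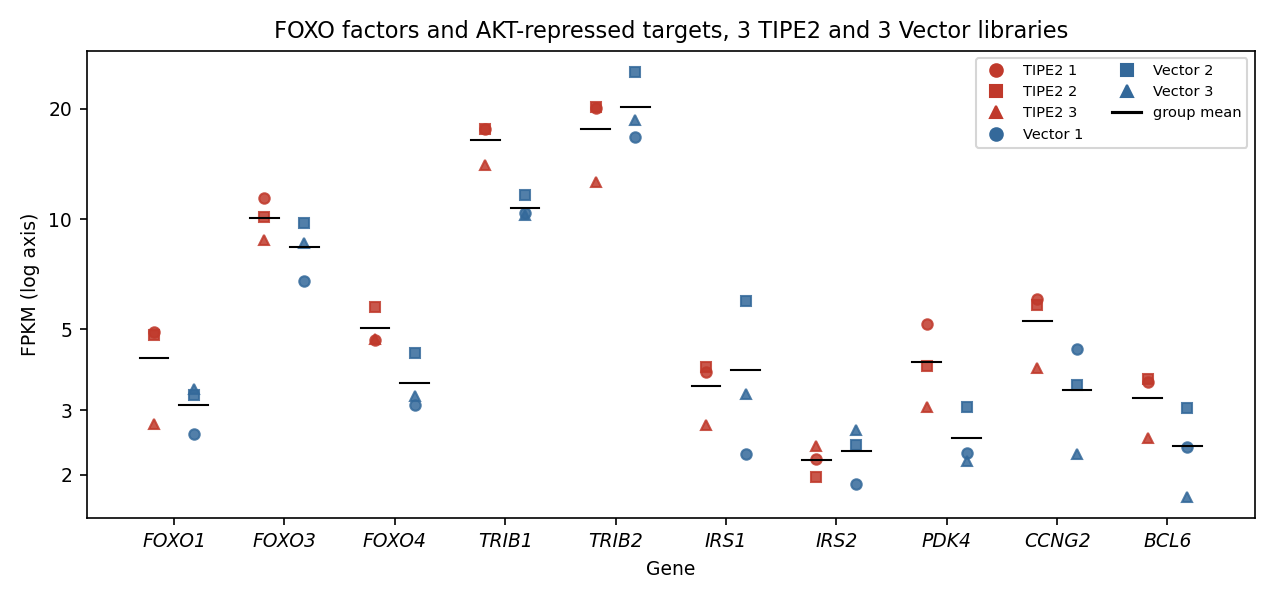
FPKM of the 10 genes (log axis) in each TIPE2 library (red) and Vector library (blue), with the replicate number as the marker shape and the group mean as a bar. The groups are separate for TRIB1 and FOXO4 and overlap for the other 8 genes.

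The delivered gene checked the labels: TNFAIP8L2 had 58.4, 47.2 and 48.8 FPKM in TIPE2 1, 2 and 3, and was listed at 0, 0.0476 and 0 FPKM in Vector 1, 2 and 3. Over all 12538 genes tested with limma on log2(FPKM + 1), 3 passed a Benjamini-Hochberg adjusted p under 0.05, which is 0.0239% of them. That count was 1 without TIPE2 1, TIPE2 2, Vector 2 or Vector 3, and 11 without TIPE2 3. Assigned fragments lay between 16749306 and 18583473 in the TIPE2 libraries and between 15983317 and 17375930 in the Vector libraries. Correlations of log2(FPKM + 1) across genes lay between 0.969 and 0.989 for pairs within a group and between 0.960 and 0.985 for pairs across groups. TIPE2 3 was closest to Vector 3 (0.985, beside 0.972 with TIPE2 1 and 0.977 with TIPE2 2), and Vector 1 had no correlation above 0.975 with any library. Markers of the carcinoma cell were at 1 FPKM or more for 7 of 8 genes, with MUC16 near 0; their summed level was 1186 to 1437 FPKM in TIPE2 cells, against 1366 to 1500 FPKM in Vector cells. Fibroblast markers summed to 1.61 to 6.76 FPKM in TIPE2 against 1.92 to 4.49 FPKM in Vector cells, with PDGFRB, THY1 and DCN under 0.1 FPKM, and all 6 leukocyte markers were under 0.1 FPKM on average. Endothelial markers summed to 0.813 to 1.07 FPKM in TIPE2 cells, against 0.522 to 0.688 FPKM in Vector cells, with CDH5 and VWF under 0.1 FPKM; their part in the results below was not tested. Of the carcinoma markers tested, 5 of 7 had a lower mean in TIPE2 cells, where 48.9% of all tested genes had a positive difference. KRT7, with the smallest p of the 7, had 139, 166 and 147 FPKM in TIPE2 1, 2 and 3, against 384, 241 and 303 FPKM in Vector 1, 2 and 3 (limma, adjusted p = 0.343). EPCAM and ERBB2 had a higher mean in TIPE2 cells (differences 0.38 and 0.40 on the log2(FPKM + 1) scale, limma, adjusted p = 0.842 and 0.834). PAX8 was nearly level (difference -0.054). These 3 are named after their values were seen. In bulk RNA, fewer cells with a transcript and less of it per cell cannot be told apart.

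None of the 10 genes passed the test between TIPE2 and Vector cells (limma, smallest adjusted p = 0.423, for TRIB1), and none passed with limma's voom on fragment counts recovered from the FPKM values. The mean was higher in TIPE2 cells for 7 of the 10 (FOXO1, FOXO3, FOXO4, TRIB1, PDK4, CCNG2 and BCL6) and lower for TRIB2, IRS1 and IRS2, where 48.9% of all tested genes had a positive difference. The median difference of the 10 was 0.32 on the log2(FPKM + 1) scale, beside -0.0056 over all genes tested. With an unadjusted p under 0.05 stood 4 genes, TRIB1, FOXO4, PDK4 and CCNG2, all higher in TIPE2 cells, where 5.99% of all tested genes had such a p in either direction and 3.01% were higher. That number was 2 without TIPE2 1 or without TIPE2 2, 1 without Vector 3 and 6 without TIPE2 3. TRIB1 and FOXO4 had every TIPE2 library above every Vector library, as had 6.18% of all tested genes. The 10 genes were chosen with earlier results on these libraries known, TRIB1, PDK4 and CCNG2 among those shown, so these counts are a description.

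**Figure D2:**
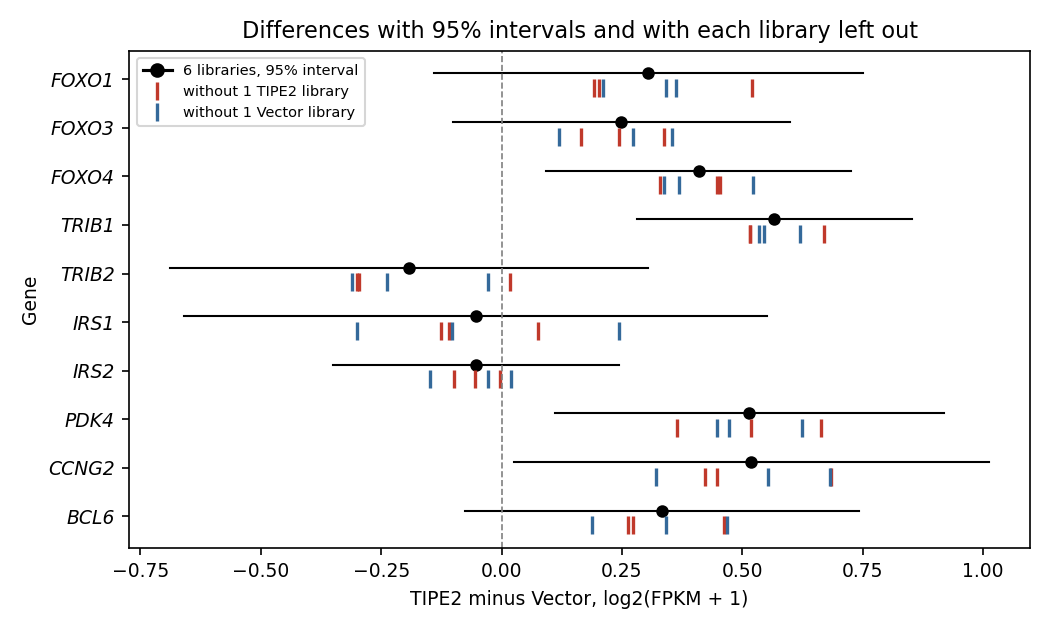
Difference of TIPE2 minus Vector for each gene on the log2(FPKM + 1) scale, with all 6 libraries and the 95% interval of limma (black), and with 1 library left out at a time (red ticks, a TIPE2 library; blue ticks, a Vector library). The intervals of TRIB1, FOXO4, PDK4 and CCNG2 lie above 0 before adjustment, and the ticks of TRIB2, IRS1 and IRS2 fall on both sides of 0.

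FOXO1, the factor best known from insulin control of liver metabolism (ENSG00000150907; GRCh38 chromosome 13, 40469953 to 40666597, minus strand), had 4.91, 4.83 and 2.75 FPKM in TIPE2 1, 2 and 3, against 2.59, 3.30 and 3.44 FPKM in Vector 1, 2 and 3. TIPE2 1 and 2 were above every Vector library, whereas TIPE2 3 lay below Vector 2 and 3, so the groups overlapped. The difference was 0.31 (standard error 0.19, limma, adjusted p = 0.834), and it was 0.52 without TIPE2 3 against 0.19 without TIPE2 1. FOXO3, the most abundant factor of the family here (ENSG00000118689; chromosome 6, 108559835 to 108684774, plus strand), had 11.4, 10.1 and 8.75 FPKM in TIPE2 1, 2 and 3, against 6.76, 9.74 and 8.59 FPKM in Vector 1, 2 and 3. For FOXO3, TIPE2 1 and 2 were above every Vector library, whereas TIPE2 3 lay below Vector 2, so the groups overlapped. The lowest library was Vector 1. The difference was 0.25 (standard error 0.15, limma, adjusted p = 0.834), and between 0.12 (without Vector 1) and 0.35 with 1 library left out. FOXO3B, a processed copy of FOXO3 elsewhere in the genome, had 0.394 to 1.17 FPKM, and how shared fragments were assigned is not given in the sources used here.

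FOXO4, the X-linked factor (ENSG00000184481; chromosome X, 71096197 to 71103535, plus strand), had 4.67, 5.74 and 4.71 FPKM in TIPE2 1, 2 and 3, against 3.10, 4.30 and 3.28 FPKM in Vector 1, 2 and 3. Every TIPE2 library was above every Vector library, with TIPE2 1 closest to Vector 2. The difference was 0.41 (standard error 0.14, 95% interval 0.093 to 0.73, limma, adjusted p = 0.755), and it lay between 0.33 and 0.52 with 1 library left out at a time. FOXO6, the remaining factor of the family, which differs from the others in staying mostly nuclear, had 2.84, 3.10 and 2.70 FPKM in TIPE2 1, 2 and 3, against 3.83, 2.92 and 3.45 FPKM in Vector 1, 2 and 3. Its groups overlapped (difference -0.18, standard error 0.12, limma, adjusted p = 0.842). The summed level of the 4 FOXO genes was 23.8, 23.8 and 18.9 FPKM in TIPE2 1, 2 and 3, against 16.3, 20.3 and 18.8 FPKM in Vector 1, 2 and 3. FOXO3 made up 45.5 ± 2.74% of that sum in TIPE2 and 45.1 ± 3.31% in Vector cells (SD, n = 3 each), and these shares differed by less than the spread between libraries. The share of FOXO6 was 13.1 ± 1.17% in TIPE2 and 18.8 ± 4.55% in Vector cells; its groups did not overlap (exact two-sided permutation p = 0.1, the smallest that 3 against 3 libraries allow), and the share was computed after the levels were seen.

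TRIB1 and TRIB2 encode pseudokinases that act as scaffolds: both bring the ubiquitin ligase COP1 to C/EBP transcription factors, and TRIB2 is also known as a repressor of FOXO3 in melanoma. TRIB1 (ENSG00000173334, on chromosome 8) had the smallest p of the 10 genes, with 17.7, 17.7 and 14.1 FPKM in TIPE2 1, 2 and 3, against 10.4, 11.6 and 10.2 FPKM in Vector 1, 2 and 3. The lowest TIPE2 library, TIPE2 3, was above the highest Vector library, Vector 2. The means differed 1.53-fold, and the difference on the log2(FPKM + 1) scale was 0.57 (standard error 0.12, 95% interval 0.28 to 0.85, limma, unadjusted p = 0.00186, adjusted p = 0.423). With 1 library left out at a time it stayed between 0.52 and 0.67, and the adjusted p over all alternatives lay between 0.104 and 1.00. TRIB2 (ENSG00000071575; chromosome 2, 12716889 to 12742734, plus strand) had 20.1, 20.2 and 12.7 FPKM in TIPE2 1, 2 and 3, against 16.7, 25.2 and 18.7 FPKM in Vector 1, 2 and 3. Its lowest value was in TIPE2 3 and its highest in Vector 2, and the groups overlapped. The difference was -0.19 with a 95% interval of -0.69 to 0.30 (limma, adjusted p = 0.858), and 0.018 without TIPE2 3.

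The ratio of TRIB1 to TRIB2 within a library separated the groups. It was 0.879, 0.873 and 1.11 in TIPE2 1, 2 and 3, against 0.622, 0.460 and 0.549 in Vector 1, 2 and 3 (exact two-sided permutation p = 0.1, the smallest possible). The ratio was chosen after the levels were seen, and a ratio shows unequal levels without saying which of the genes differed. Ratios of TRIB1 to TRIB3, IRS1 to IRS2 and CCNG2 to CCNG1 were also computed, and their groups overlapped. So did the groups for the shares of FOXO1, FOXO3 and FOXO4 in the summed FOXO level. TRIB3, a stress-induced member of the family, had 8.87, 8.73 and 13.97 FPKM in TIPE2 1, 2 and 3, against 14.4, 10.9 and 17.7 FPKM in Vector 1, 2 and 3, with overlapping groups (difference -0.42, standard error 0.22, limma, adjusted p = 0.834). Of 6 fixed partners of TRIB1 and TRIB2, 0 passed (limma), 0 had an unadjusted p under 0.05, and the median difference was -0.069. COP1 had 9.77 ± 0.305 FPKM in TIPE2 cells, against 8.99 ± 0.490 FPKM in Vector cells. The C/EBP factor CEBPA had 1.61 ± 0.330 FPKM against 2.06 ± 0.607 FPKM, and the kinase MAP2K1 had 28.9 ± 4.95 FPKM against 31.4 ± 1.41 FPKM (SD, n = 3 each).

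IRS1 and IRS2 are the docking proteins through which insulin and IGF1 receptors activate PI3K, and IRS2 is a FOXO target whose transcription insulin lowers in liver. IRS1 (ENSG00000169047; chromosome 2, 226731317 to 226799759, minus strand) had 3.82, 3.93 and 2.73 FPKM in TIPE2 1, 2 and 3, against 2.28, 5.98 and 3.33 FPKM in Vector 1, 2 and 3. Both its lowest and its highest value were in Vector libraries, and the difference of -0.053 (95% interval -0.66 to 0.55, limma, adjusted p = 0.963) turned to 0.24 without Vector 2 and to 0.075 without TIPE2 3. IRS2 (ENSG00000185950; chromosome 13, 109752698 to 109786568, minus strand), the gene with the insulin response motif shown above, had 2.20, 1.98 and 2.39 FPKM in TIPE2 1, 2 and 3, against 1.89, 2.41 and 2.65 FPKM in Vector 1, 2 and 3. Its spread over the 6 libraries, relative to its mean, was the smallest of the 10 genes, with Vector 1 lowest and Vector 3 highest. Its difference was -0.052 with a 95% interval of -0.35 to 0.24 (limma, adjusted p = 0.928). An annotated antisense gene shares 115 exon bases with IRS2 and was at 0.236 FPKM at most.

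PDK4, a kinase that shuts pyruvate dehydrogenase and spares glucose in fasting (ENSG00000004799; chromosome 7, 95583499 to 95596491, minus strand), had 5.15, 3.97 and 3.06 FPKM in TIPE2 1, 2 and 3, against 2.30, 3.07 and 2.18 FPKM in Vector 1, 2 and 3. TIPE2 1 was the highest library, and TIPE2 3 and Vector 2 were level, so that the groups just overlapped. The difference was 0.51 (standard error 0.17, limma, adjusted p = 0.764), 0.66 without TIPE2 3 and 0.36 without TIPE2 1. The other pyruvate dehydrogenase kinases PDK1, PDK2 and PDK3 had means of 1.51, 6.07 and 3.16 FPKM in TIPE2 cells, against 2.00, 5.28 and 3.47 FPKM in Vector cells. PDK4 made up 31.8%, 26.0% and 23.7% of the summed level of the 4 kinases in TIPE2 1, 2 and 3, against 17.6%, 21.4% and 17.5% in Vector 1, 2 and 3. These shares did not overlap (exact two-sided permutation p = 0.1, the smallest possible), and the share was chosen after the levels were seen.

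CCNG2, an unconventional cyclin that restrains the cell cycle (ENSG00000138764; chromosome 4, 77157151 to 77433388, plus strand), had 6.06, 5.81 and 3.91 FPKM in TIPE2 1, 2 and 3, against 4.41, 3.52 and 2.28 FPKM in Vector 1, 2 and 3. TIPE2 3 lay below Vector 1, and Vector 3 was the lowest of the 6. The difference was 0.52 (standard error 0.21, limma, adjusted p = 0.815), and 0.32 without Vector 3. Its paralog CCNG1, a p53 target, had 19.3, 19.5 and 17.7 FPKM in TIPE2 1, 2 and 3, against 17.5, 15.5 and 14.3 FPKM in Vector 1, 2 and 3, without overlap (difference 0.25, standard error 0.11, limma, adjusted p = 0.834). BCL6, a transcriptional repressor best known from germinal centre B cells (ENSG00000113916; chromosome 3, 187721377 to 187745727, minus strand), had 3.58, 3.65 and 2.52 FPKM in TIPE2 1, 2 and 3, against 2.39, 3.04 and 1.74 FPKM in Vector 1, 2 and 3. TIPE2 3 lay below Vector 2, and the difference was 0.33 (standard error 0.18, limma, adjusted p = 0.834), or 0.19 without Vector 3. Annotated antisense genes share 171 and 318 exon bases with BCL6 and were at 0.638 FPKM at most, so shared fragments are uncertain. Of 5 fixed BCL6 corepressors 0 passed (limma) and 0 had an unadjusted p under 0.05; HDAC4 had 5.56 ± 1.18 FPKM in TIPE2 cells, against 4.60 ± 0.779 FPKM in Vector cells, and NCOR1 had 4.43 ± 0.581 FPKM against 3.82 ± 1.32 FPKM (SD, n = 3 each).

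Library by library, most of the 10 genes lay on the same side of their own means. No other set of genes was compared in this way, and differences between the groups enter these deviations. The mean deviation of the 10 genes from their own means was 0.26, 0.23 and -0.11 in TIPE2 1, 2 and 3, against -0.26, 0.084 and -0.21 in Vector 1, 2 and 3, on the log2(FPKM + 1) scale. TIPE2 3 thus lay below Vector 2, and 9, 9 and 3 of the 10 genes were above their own mean in TIPE2 1, 2 and 3, against 1, 6 and 2 in Vector 1, 2 and 3. TIPE2 3 was also the TIPE2 library that, over all tested genes, was closest to Vector 3. Vector 2 was the highest library for TRIB2 and IRS1, and Vector 1 the lowest for FOXO1, FOXO3, FOXO4, IRS1 and IRS2. Over the 6 libraries, which share their groups and are too few for more than a description, TRIB1 and PDK4 had the highest Pearson r of the 10 (r = 0.934, Spearman rho = 0.886), and TRIB2 was most like IRS1 (r = 0.842, rho = 0.943). By rho, FOXO3 with PDK4 and BCL6 with PDK4 were likewise higher, at 0.943 each. IRS2 followed no other gene closely, its highest r being 0.315 with IRS1. Among the other 7200 tested genes averaging 5 FPKM or more, those most like TRIB1 were BSDC1 (r = 0.992), the interleukin 1 receptor IL1R1 (r = 0.991) and the restriction factor TRIM5 (r = 0.991). IL1R1 had 8.89, 8.31 and 6.21 FPKM in TIPE2 1, 2 and 3, against 3.89, 5.00 and 4.29 FPKM in Vector 1, 2 and 3, without overlap (difference 0.70, limma, adjusted p = 0.383). The differences of BSDC1 and TRIM5 were 0.22 and 0.21 (limma, adjusted p = 0.827 and 0.834). All 3 genes were picked for following TRIB1, whose groups are separate, so their own differences between the groups are not a separate result.

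**Figure D3:**
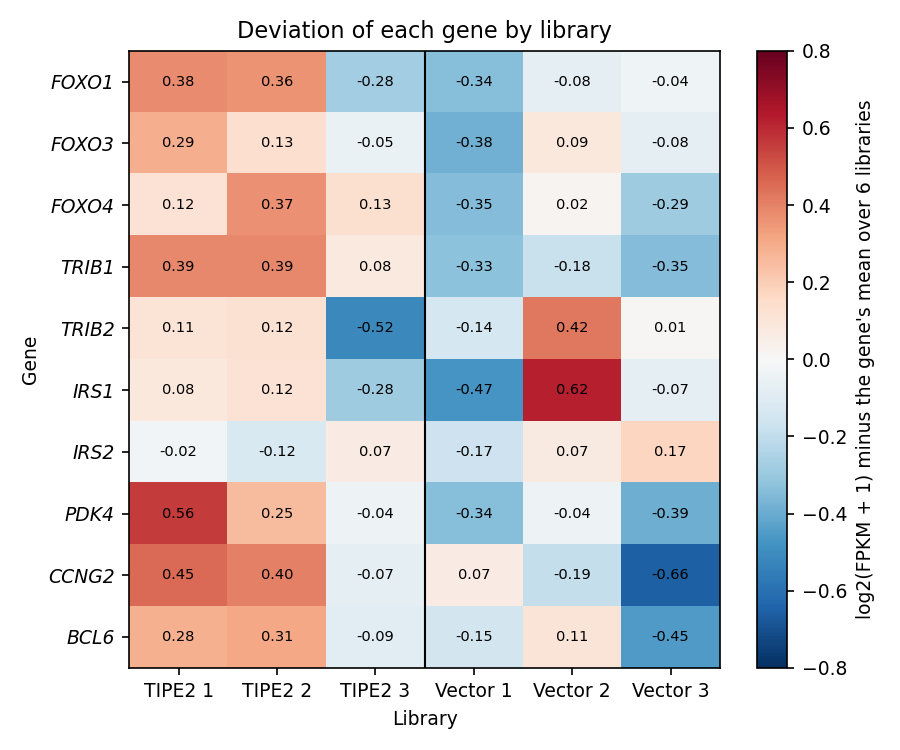
Deviation of each gene from its own mean over 6 libraries, in log2(FPKM + 1), with TIPE2 libraries left of the line and Vector libraries right of it (red, above the mean; blue, below). TIPE2 1 and 2 are above the mean for 9 of 10 genes each, and TIPE2 3 for 3.

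Other genes that FOXO factors are known to induce in other cells gave no call. Of 34 listed, 25 were tested, 0 passed (limma), 18 had a positive difference and the median was 0.10. An unadjusted p under 0.05 was found for 5, all higher in TIPE2 cells: ULK1, GABARAPL1, CAT, TNFSF10 and KLF4. Of all tested genes, 5.99% had such a p and 3.01% were higher with it. The autophagy kinase ULK1 had 13.1, 12.4 and 11.6 FPKM in TIPE2 1, 2 and 3, against 8.81, 10.4 and 9.60 FPKM in Vector 1, 2 and 3 (difference 0.33, limma, adjusted p = 0.743). The ATG8-family gene GABARAPL1 had 9.06, 8.08 and 6.90 FPKM in TIPE2 1, 2 and 3, against 6.15, 6.34 and 5.54 FPKM in Vector 1, 2 and 3 (difference 0.36, limma, adjusted p = 0.778). Every TIPE2 library was above every Vector library for these genes and for KLF4, 3 of the 25 tested, as for 6.18% of all tested genes. The cell cycle inhibitor CDKN1A, named after its values were seen, was the 1 gene of the list with every TIPE2 library below every Vector library, with 7.07, 8.76 and 9.24 FPKM in TIPE2 1 to 3, against 11.1, 9.25 and 10.2 FPKM in Vector 1 to 3 (difference -0.26, limma, adjusted p = 0.834), as for 5.31% of all tested genes. Catalase, CAT, had 41.3, 34.7 and 27.3 FPKM in TIPE2 1, 2 and 3, against 27.5, 24.3 and 18.2 FPKM in Vector 1, 2 and 3, and its groups overlapped at TIPE2 3 and Vector 1. IGFBP1, the classical FOXO target of liver, had 9.40 ± 3.56 FPKM in TIPE2 cells, against 15.9 ± 5.86 FPKM in Vector cells (SD, n = 3 each; difference -0.70, limma, adjusted p = 0.827), and PCK1 was listed at 0 in all 6 libraries; IGFBP1, PCK1, TNFSF10 and KLF4 are named after their values were seen.

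Of 3 genes that FOXO factors repress, CCND2 was listed at 0 in all 6 libraries, 2 were tested and 0 passed (limma). The 2 tested genes had a lower mean in TIPE2 cells and an unadjusted p under 0.05. Of all tested genes, 5.99% had such a p in either direction. The G1 cyclin CCND1 had 41.5, 44.3 and 37.5 FPKM in TIPE2 1, 2 and 3, against 45.6, 75.3 and 60.9 FPKM in Vector 1, 2 and 3 (difference -0.52, standard error 0.19, limma, adjusted p = 0.779). MYC had 24.0, 28.4 and 25.6 FPKM in TIPE2 1, 2 and 3, against 31.6, 39.5 and 31.3 FPKM in Vector 1, 2 and 3 (difference -0.38, standard error 0.14, limma, adjusted p = 0.779). Every TIPE2 library was below every Vector library for both, as for 5.31% of all tested genes. Both genes are also targets of WNT and of other growth signals.

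Upstream of FOXO, 20 of 24 listed genes from the insulin receptor to AKT were tested, 0 passed (limma) and the median difference was 0.061. Of the 20, 1 had an unadjusted p under 0.05, near the 5.99% of all tested genes with such a p. SGK1, a kinase related to AKT that also phosphorylates FOXO3, was that gene, with 1.44, 1.51 and 2.92 FPKM in TIPE2 1, 2 and 3, against 3.05, 3.09 and 3.25 FPKM in Vector 1, 2 and 3. TIPE2 3 stood close to the Vector libraries, and the difference was -0.52 (standard error 0.19, limma, adjusted p = 0.779). PIK3R1, a regulatory subunit of PI3K, had 8.13 ± 2.33 FPKM in TIPE2 cells, against 5.60 ± 0.480 FPKM in Vector cells (SD, n = 3 each), and its groups overlapped. PIK3R2, PIK3R3, INPP4B and INPP5D averaged under 1 FPKM and were not tested. PIK3R3 had 1.15, 1.34 and 1.08 FPKM in TIPE2 1, 2 and 3, against 0.461, 0.522 and 0.413 FPKM in Vector 1, 2 and 3. INPP4B had 1.13, 1.04 and 1.33 FPKM in TIPE2 1, 2 and 3, against 0.56, 0.67 and 0.98 FPKM in Vector 1, 2 and 3. These untested genes are named after their values were seen. Of 20 genes for the localisation and turnover of FOXO proteins, 0 passed (limma), 0 had an unadjusted p under 0.05 and the median was -0.020. The ubiquitin ligase subunit SKP2 had 9.67 ± 0.288 FPKM in TIPE2 cells, against 11.2 ± 0.525 FPKM in Vector cells, and the 14-3-3 gene YWHAH had 70.7 ± 8.80 FPKM against 85.5 ± 15.4 FPKM (SD, n = 3 each). Of 8 paralogs of the 10 genes, 6 were tested, 0 passed (limma), 0 had an unadjusted p under 0.05 and the median was -0.14; PDK2 had 6.07 ± 0.364 FPKM in TIPE2 cells, against 5.28 ± 0.495 FPKM in Vector cells (SD, n = 3 each).

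**Figure D4:**
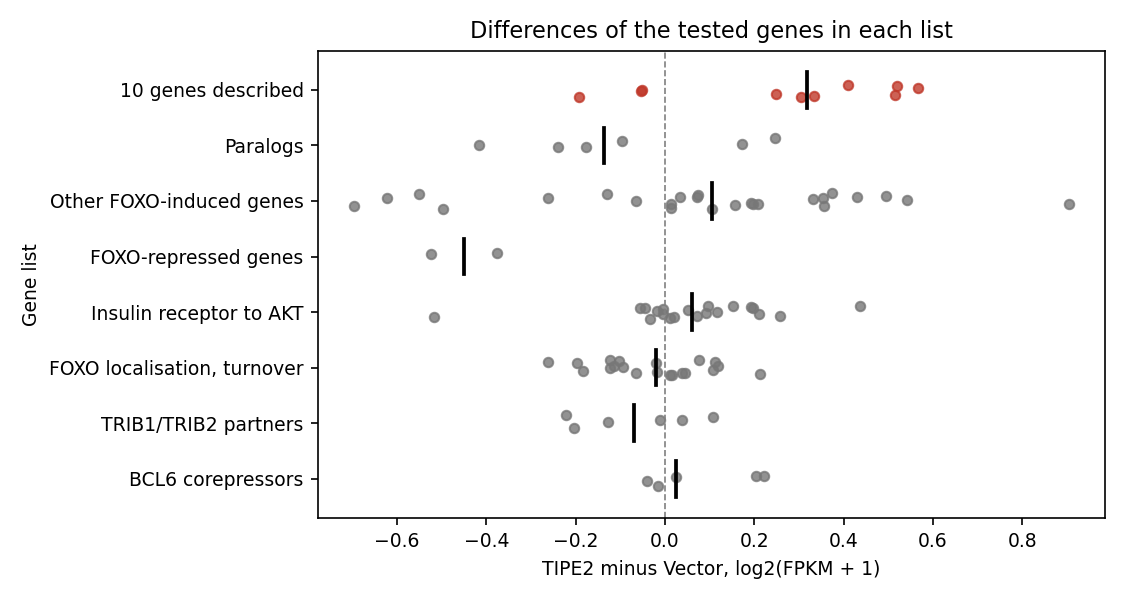
Difference of TIPE2 minus Vector on the log2(FPKM + 1) scale for each tested gene (points) of the 10 genes described (red) and of 7 other lists (grey), with the median of each list as a bar. INSR, PIK3CA and RICTOR are in both the FOXO-induced and the insulin receptor to AKT list. COP1 is in both the FOXO localisation and turnover and the TRIB1/TRIB2 partner list. The median is 0.32 for the 10 genes, 0.10 for other FOXO-induced genes and 0.061 for the genes from the insulin receptor to AKT, and no point shown passed the test.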

How the data were processed

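Values were deposited by the authors as FPKM for 58735 Ensembl genes in each library, per the file headers. CASAVA 1.7, Bowtie and the mouse build mm8 are named in the submitters' processing notes, whereas all 58735 identifiers are human and are in GENCODE 29 (GRCh38), which gave symbols, coordinates and merged exon lengths. For the aligner's true build, the counter and the strand setting, the answer is not given in the sources used here. FPKM times exon length gave whole fragments for 100% of values above 0, within 0.01, after division by a step per library; the denominators were 96.3% to 103% of assigned fragments, so the deposited values are already scaled between libraries. Fragments are not independent molecules, and counting error covers counting only. No 2 libraries of a group agreed within sampling noise (chi-square per degree of freedom at least 6.59), so no pair was treated as a single library; this does not show separate cultures.

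limma 3.58.1 in R 4.3.3 (trend and robust) was fitted to log2(FPKM + 1) of 12538 genes averaging 1 FPKM or more, with no covariate, and p-values were Benjamini-Hochberg adjusted over all of them. Differences are TIPE2 minus Vector on the scale of log2(FPKM + 1), so changes of low genes are understated. The steps were tested on simulated data, with changes larger than those of the 10 genes, made only in genes averaging 5 FPKM or more. The simulated spread was set and not taken from these libraries. Smaller changes and changes of lower genes were thus not covered. Single ratios used an exact two-sided permutation test over libraries. The 10 genes and all lists were chosen with earlier results of these data known. Named genes are the 10, TNFAIP8L2, up to 3 of each list with the smallest p and the 3 most like TRIB1; FOXO6, the other PDK genes and those marked in the text were added after their values were seen. Some genes that this rule names are left unreported here. Alternatives were the replicate block, each library left out, quantile normalization, median centring, no filter, a mean of at least 5 FPKM, a pseudocount of 0.1, limma without trend and robust settings, and voom on recovered fragments. Python 3.11.15 was used to read the tables.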

Additional observations from a re-analysis of the deposited data

How the results depend on the processing

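The number of the 10 genes past the threshold was 0 under each of the 14 alternatives tried, and their median difference stayed positive, between 0.23 (without TIPE2 1) and 0.46 (without TIPE2 3) on the log2(FPKM + 1) scale; with voom on recovered fragments it was 0.42. Genes with an unadjusted p under 0.05 numbered 1 with a mean of at least 5 FPKM, where 3 of the 10 were tested, and between 1 and 6 with 1 library left out at a time. The direction of single genes turned for IRS1 (0.075 without TIPE2 3, 0.243 without Vector 2), TRIB2 (0.018 without TIPE2 3) and IRS2 (0.0205 without Vector 3); with 1 library left out these 3 ranged from -0.301 to 0.243, from -0.3115 to 0.018 and from -0.1488 to 0.0205. The other 7 kept their direction under every alternative that tested them. Over all genes, 3 passed with the main settings, 1 with no filter, 1 with a mean of at least 5 FPKM and 1 with the replicate block; leaving out 1 library gave 1 to 11. The causes were not tested. Replicate numbers were not shown to pair the libraries: deviations of same-numbered libraries correlated at -0.23, 0.147 and 0.191. With the replicate block 5 of the 10 genes had an unadjusted p under 0.05 and 0 passed. With 3 libraries a group, a difference of 0.57 with a standard error of 0.12 (TRIB1) did not pass over all genes.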
